A study of Mus musculus with 6 samples.

Results

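Thyrotropin-releasing hormone (TRH) and the genes through which the brain receives, activates and answers thyroid hormone were examined in whole hypothalamus, as 9 genes of the 24513 counted. They were chosen by function: Trh, its degrading enzyme gene Trhde, the receptor genes Thra and Thrb, the deiodinase gene Dio2, the transporter gene Slco1c1, the binding protein gene Crym, and the response genes Klf9 and Hr. Total RNA was sequenced in 3 libraries of NS-DADm mice and 3 libraries of wild-type (WT) mice. All were C57BL/6 animals of 3 to 4 months, and the labels name no treatment. They do not say whether each library came from a separate mouse, so p-values measure the spread between these libraries, which may be partly technical. NS-DADm mice, as known for this line rather than from the labels, carry point mutations in the deacetylase-activating domains of nuclear receptor corepressors, NCOR1 among them, in all tissues. Through these domains the corepressors switch on the histone deacetylase HDAC3. The sex of the mice is not in the labels. The deposited values were reads per gene, and levels are given here as counts per 1000000 reads on genes (CPM, with TMM scaling), and means carry the SD of 3 libraries.

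TRH is a short peptide made by neurons of the paraventricular nucleus, which release it toward the pituitary to drive thyrotropin and, through it, the thyroid. Thyroid hormone closes the loop by lowering Trh transcription in these neurons. Its receptors bind DNA with or without the hormone, and without it they recruit corepressors and HDAC3. The prohormone T4 enters the brain through transporters such as OATP1C1, the product of Slco1c1, and is converted to the active T3 by the deiodinase DIO2 in astrocytes and in tanycytes, the cells that line the third ventricle.

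Of these 9 genes, Trh alone differed past the threshold, and it was higher in NS-DADm mice. Because Trh carries that result, the parts of its coding sequence that encode the peptide are shown first. They come from the GENCODE transcript on the GRCm38 build. The 768 coding bases on the minus strand of chromosome 6 held 5 in-frame runs of codons for glutamine, histidine, proline and glycine, from which TRH is made. Each run had codons for 2 basic residues on either side, where the precursor is cut. The 12 bases of the peptide codons are in capitals and the flanking basic codons in lower case.
Trh copy 1 (chr6:92243088-92243111): aaacgcCAGCATCCGGGCaaaagg
Trh copy 2 (chr6:92242992-92243015): aaacgaCAGCACCCTGGCcgacgt
Trh copy 3 (chr6:92242857-92242880): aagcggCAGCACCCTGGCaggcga
Trh copy 4 (chr6:92242803-92242826): aagaggCAGCATCCAGGCcggagg
Trh copy 5 (chr6:92242710-92242733): aaacgtCAGCATCCTGGCaaaagg
Copies 2 and 3 had the same 12 bases, so that 4 spellings encoded the 5 copies. Reads on any copy count toward the same gene.

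The 250 bases before the transcription start are shown for Trh and for Dio2, since both genes are known targets of hormone and cAMP signals. They come from RefSeq on GRCm38.p6, which holds a start for 6 of the 9 genes. RefSeq places the Dio2 start upstream of the gene as GENCODE draws it. Capitals mark matches to a searched motif, on either strand.
Trh (chr6:92244651-92244900, minus strand): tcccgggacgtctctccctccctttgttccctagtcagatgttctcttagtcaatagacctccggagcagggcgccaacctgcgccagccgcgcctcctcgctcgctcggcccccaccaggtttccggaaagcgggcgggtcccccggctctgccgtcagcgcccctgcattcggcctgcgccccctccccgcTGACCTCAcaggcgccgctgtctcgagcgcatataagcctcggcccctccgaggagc
Dio2 (chr12:90739039-90739288, minus strand): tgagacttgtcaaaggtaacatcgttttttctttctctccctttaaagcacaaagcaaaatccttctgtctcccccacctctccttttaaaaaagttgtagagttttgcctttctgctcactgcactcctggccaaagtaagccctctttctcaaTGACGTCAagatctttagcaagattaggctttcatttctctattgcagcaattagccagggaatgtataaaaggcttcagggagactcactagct
The Trh window held TGACCTCA from 57 to 50 bases before the start, a sequence known from work on the TRH promoter as a site bound by thyroid hormone receptors and by the cAMP-responsive factor CREB. It overlaps the receptor half-site AGGTCA, which reads on the opposite strand from 57 to 52 bases before the start. Over all 32851 such windows of 250 bases, 1.94% held TGACCTCA and 14.0% held AGGTCA. The Dio2 window held the cAMP response element TGACGTCA, which reads the same on both strands, from 95 to 88 bases before the start, as did 1.55% of windows. Of the other windows, 1 of the 2 for Thrb held AGGTCA, from 184 to 179 bases before that start, and those of Slco1c1, Trhde and Klf9 held none of these motifs. The DR4 element, a pair of AGGTCA half-sites in the same direction with 4 bases between them, was in 5 of the 32851 windows and in none for these genes. A match of letters is a description of the window and not a measured binding site.

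In units of 1000000 reads on genes, the libraries held 24.2 to 27.5 in NS-DADm mice and 26.5 to 27.6 in WT mice, and the 9 genes had 65 to 11504 reads per library. All 9 passed the filter on low counts and reached at least 1 CPM in each of the 6 libraries. In the fit over 15894 genes with the quasi-likelihood test of edgeR and Benjamini-Hochberg (BH) adjustment, 104 genes were called at an adjusted p under 0.05, 13 higher and 91 lower in NS-DADm mice. Markers of thalamus, which borders the hypothalamus, were lower in all NS-DADm libraries. Their summed level was 679 to 742 CPM in NS-DADm and 977 to 1411 CPM in WT libraries, and none was at 0 in any library. All 14 markers had lower fitted values and 6 were called, against 0.573% of all tested genes called as lower. The list was made with earlier results of these data known, so these counts describe the libraries and are no independent test. Markers of anterior pituitary summed to 203, 2018 and 200.02 CPM in NS-DADm 1, 2 and 3, and to 40.4 to 112 CPM in WT libraries. None of the 8 tested pituitary markers was called by edgeR, DESeq2 or limma, 1 was higher at an unadjusted p under 0.05, and all 8 fitted values were above 0. Defining hypothalamic markers, from Nkx2-1 to Oxt and Avp, were present in every library, at 596 to 725 CPM summed over 11 genes in NS-DADm and 592 to 650 CPM in WT mice.

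Ncor1 and Hdac3, which encode a mutated corepressor and the deacetylase it activates, were measured first. Ncor1 averaged 226 ± 3.9 CPM in NS-DADm mice, against 230 ± 7.4 CPM in WT mice (edgeR, BH adjusted p = 0.91). For Hdac3 the means were 107 ± 0.63 CPM in NS-DADm mice and 99.6 ± 2.6 CPM in WT mice (edgeR, BH adjusted p = 0.43). Neither was called by edgeR, DESeq2 or limma. For Hdac3 every NS-DADm library was above every WT library, as for 7.86% of all tested genes. Its unadjusted p was 0.041 (edgeR), and 4.4% of all tested genes were higher at an unadjusted p under 0.05. The genotype labels cannot be checked this way, since counts per gene do not show a point mutation.

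Of the 9 thyroid axis genes, 1 was called, against 0.654% of all tested genes in either direction and 0.0818% in the higher direction. At an unadjusted p under 0.05 there were 3 of the 9, Trh higher and Dio2 and Slco1c1 lower, against 10.9% of all tested genes, 4.4% in the higher and 6.46% in the lower direction. The same 3 genes had libraries that did not overlap between the groups, as did 16.8% of all tested genes, 7.86% with NS-DADm libraries higher and 8.93% with them lower. The median log2 fold change over the 9 genes was -0.01, and over all tested genes it was 0.004. Of the 9 fitted values, 4 were above 0 and 5 below. For the other lists in this text, counts at an unadjusted p under 0.05 stand against the same 4.4% higher and 6.46% lower. DESeq2 called 282 of the 15894 tested genes, and limma called 86.

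**Figure D1:**
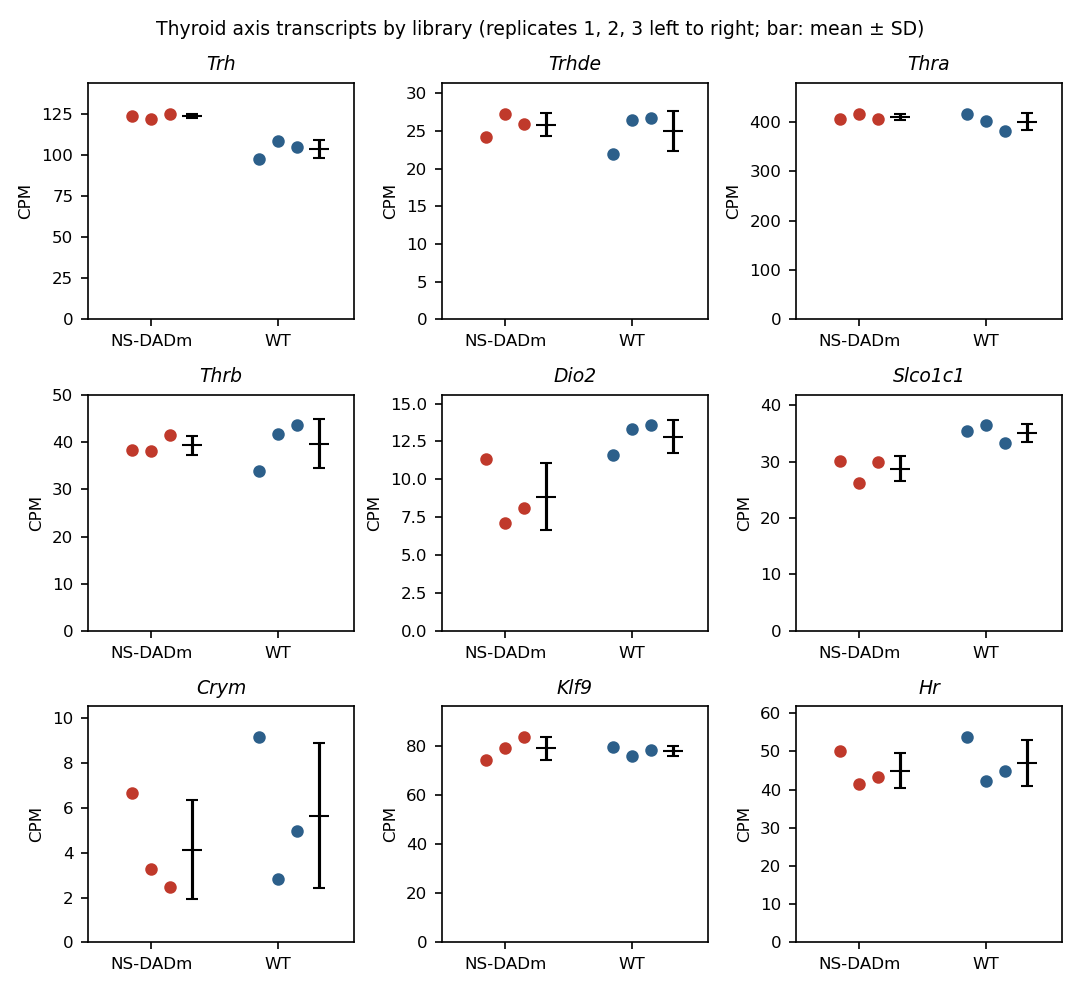
CPM of each gene (vertical axes, from 0) in the 3 NS-DADm libraries (left, red) and the 3 WT libraries (right, blue), with the mean ± SD as a black bar. Trh lies between 122 and 125 CPM in NS-DADm libraries, above all WT libraries, Dio2 and Slco1c1 lie below all WT libraries, and the groups overlap for the other 6 genes.

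Trh (chromosome 6, 92242061 to 92244650, minus strand, protein-coding) measured 124, 122 and 125 CPM in NS-DADm 1, 2 and 3, against 97.8, 108 and 105 CPM in WT 1, 2 and 3. The NS-DADm libraries lay close together and above every WT library. The mean was 124 ± 1.4 CPM in NS-DADm mice and 104 ± 5.3 CPM in WT mice, a 1.19-fold rise that rested on 3028 to 3376 reads per NS-DADm library and 2675 to 2963 per WT library. The log2 fold change was 0.26 ± 0.05 SE, with a 95% interval of 0.15 to 0.37 (edgeR, BH adjusted p = 0.042). With each library left out in turn the log2 fold change was 0.22 to 0.29. The adjusted p was above 0.05 without WT 3 (0.14), NS-DADm 1 (0.086), NS-DADm 2 (0.18) or NS-DADm 3 (0.26), and with the mean log2 CPM of the 14 thalamus markers in the model (log2 0.10 ± 0.12 SE; edgeR, BH adjusted p = 0.84). The thalamus marker means of the 2 groups did not overlap, so genotype and this marker level cannot be told apart in 6 libraries.

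Trh was also set against other hypothalamic transcripts within each library, which removes the effect of the scaling factors. Relative to the mean log2 CPM of the 11 hypothalamic markers, Trh was at 2.05, 1.88 and 2.12 in NS-DADm 1, 2 and 3, against 1.93, 1.84 and 1.82 in WT 1, 2 and 3. One NS-DADm library, the second, then lay below WT 1, so the groups overlapped. The difference was 0.15 on the log2 scale (exact two-sided permutation test, p = 0.20, with 0.10 the smallest p that 3 against 3 allows). None of the 11 hypothalamic markers was called with edgeR, with DESeq2 or with limma. At an unadjusted p under 0.05, 2 of them, Otp and Oxt, were higher and 0 lower. Of the 11 fitted values, 9 were above 0 and 2 below. Their median log2 fold change was 0.17, against 0.004 over all tested genes. Markers of paraventricular neurons, the main home of hypophysiotropic TRH, summed over 5 genes to 294, 355 and 361 CPM in NS-DADm 1, 2 and 3, against 336, 307 and 283 CPM in WT 1, 2 and 3. These groups overlapped, and no gene of the list was called by edgeR, DESeq2 or limma. At an unadjusted p under 0.05, 2 were higher and 0 lower, the same Otp and Oxt as among the hypothalamic markers. Of the 5 fitted values, 4 were above 0 and 1 below, with a median of 0.17. In whole tissue, more TRH neurons and more Trh RNA per neuron cannot be told apart.

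Trhde encodes the membrane ectoenzyme that inactivates TRH outside cells (chromosome 10, 114398823 to 114802307, minus strand). It measured 24.2, 27.3 and 25.9 CPM in NS-DADm 1, 2 and 3, against 22.0, 26.4 and 26.7 CPM in WT 1, 2 and 3. The groups overlapped, with a log2 fold change of 0.05 and a 95% interval of -0.13 to 0.22 (edgeR, BH adjusted p = 0.91). An antisense gene on the opposite strand shares 538 of its exonic bases, and the sources used here do not say whether counting used the strand, so reads there cannot be assigned to one of the 2 genes. There were 5.11, 4.48 and 4.83 Trh reads per Trhde read in NS-DADm 1, 2 and 3, against 4.45, 4.10 and 3.92 in WT 1, 2 and 3. This ratio was higher in every NS-DADm library than in every WT library, by 0.21 on the log2 scale, at the smallest p the design allows (exact two-sided permutation test, p = 0.10). The closest libraries were NS-DADm 2 at 4.48 and WT 1 at 4.45. As Trhde differed little, the ratio mostly restates the Trh difference and is no independent test.

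Other genes that make, receive or break down TRH were taken from lists made by function. Of 5 precursor-processing genes, none was called with edgeR or with limma, and 1 was with DESeq2. At an unadjusted p under 0.05 there was 1 higher and 1 lower. Pcsk2, a convertase that cuts the TRH precursor, had 265, 274 and 281 CPM in NS-DADm 1, 2 and 3, against 338, 304 and 326 CPM in WT 1, 2 and 3. Its groups did not overlap, and its log2 fold change of -0.24 ± 0.05 SE stood just short of the threshold (edgeR, BH adjusted p = 0.054) and past it with DESeq2 (adjusted p = 0.0031). It also passed without WT 1 (adjusted p = 0.035) or WT 2 (adjusted p = 0.021) in edgeR, and was -0.06 with the thalamus marker covariate. Pcsk1, the other convertase of the precursor, averaged 63.1 ± 2.9 CPM in NS-DADm mice and 56.5 ± 5.6 CPM in WT mice (log2 0.16; edgeR, BH adjusted p = 0.44).

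Among 5 TRH receptor and peptidase genes, none was called by any of the 3 tools, and at an unadjusted p under 0.05 there was 1, lower. Prep, a cytosolic prolyl endopeptidase, averaged 20.9 ± 0.79 CPM in NS-DADm mice and 24.3 ± 1.5 CPM in WT mice (log2 -0.22; edgeR, BH adjusted p = 0.26). The receptor genes Trhr and Trhr2 averaged 17.4 ± 0.87 and 1.56 ± 0.20 CPM in NS-DADm mice, and 15.9 ± 2.5 and 2.06 ± 0.57 CPM in WT mice, and the groups overlapped for both.

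A list of 12 genes represented the inputs and identity of TRH neurons. It included the transcription factors Sim1 and Otp that specify these neurons, and the arcuate peptides that reach them. Sim1, Otp, Pomc and Agrp were also among the hypothalamic markers above. None of the 12 was called by edgeR, DESeq2 or limma, and their median log2 fold change was 0.08. At an unadjusted p under 0.05, 2 were higher, Otp and Npy, and 1 was lower, Cartpt. Otp was already counted as a higher marker above. Npy, whose peptide restrains TRH neurons, measured 14.0, 14.8 and 11.7 CPM in NS-DADm 1, 2 and 3, against 9.07, 11.8 and 9.73 CPM in WT 1, 2 and 3. NS-DADm 3 was just below WT 2, and the log2 fold change was 0.40 ± 0.12 SE (edgeR, BH adjusted p = 0.18). Without WT 2 it was 0.52 (edgeR, BH adjusted p = 0.049), and with the thalamus marker covariate -0.19. Cartpt, whose peptide stimulates them, averaged 57.6 ± 0.99 CPM in NS-DADm mice and 63.1 ± 3.5 CPM in WT mice (edgeR, BH adjusted p = 0.41).

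**Figure D2:**
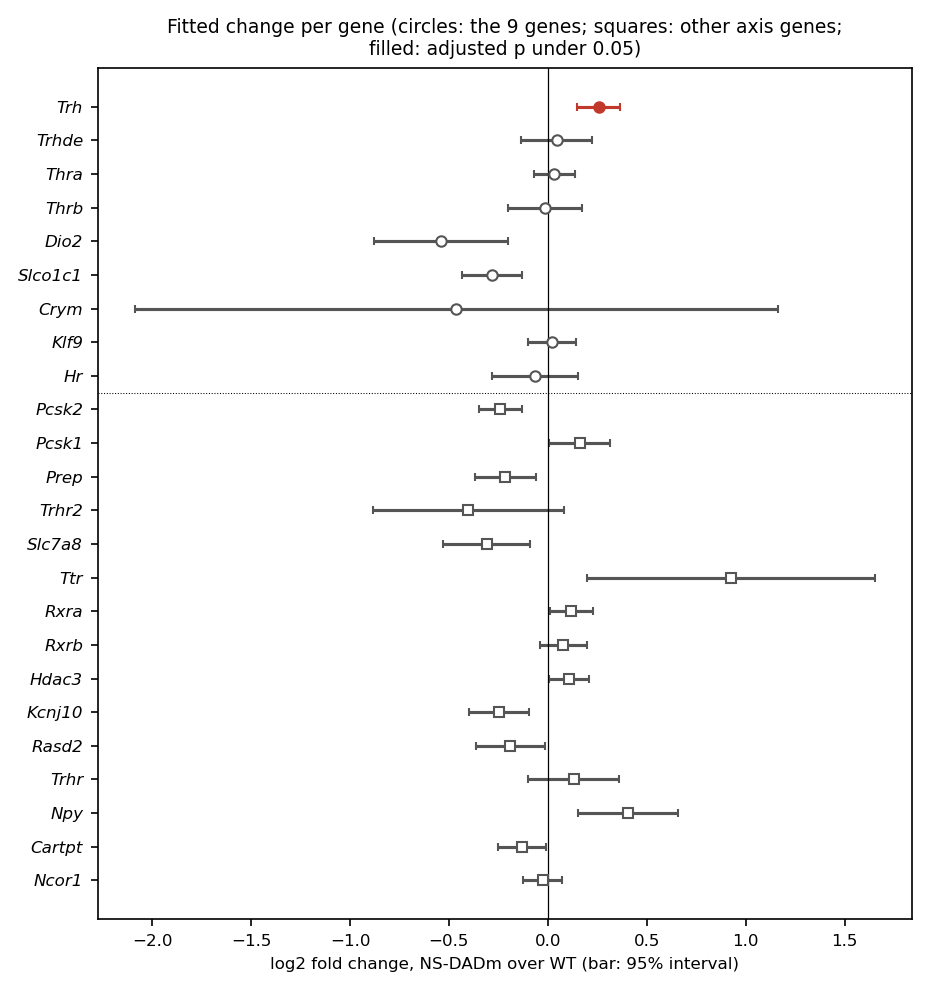
Fitted log2 fold change of NS-DADm over WT (horizontal axis) with its 95% interval for the 9 genes (circles) and for other genes of the axis that the text names (squares), with filled symbols at an adjusted p under 0.05. Trh is the only filled symbol, the interval of Crym spans -2.09 to 1.16, and Cga is left off the plot because its interval reaches 5.65.

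The 2 receptor genes differed little between the groups. Thra (chromosome 11, 98740638 to 98769006, plus strand) encodes the receptor TRα1 and a splice form that does not bind T3, which gene counts do not separate. It measured 407, 416 and 405 CPM in NS-DADm 1, 2 and 3, against 416, 402 and 382 CPM in WT 1, 2 and 3. The ranges overlapped, and the 95% interval of the log2 fold change was -0.07 to 0.13 around 0.03 (edgeR, BH adjusted p = 0.87). Its exons share 263 bases with Nr1d1 on the opposite strand, 5.70% of its exonic bases, and reads there may have been counted for either gene or for none.

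Thrb (chromosome 14, 17660261 to 18038090, plus strand) encodes the receptor forms that carry most of the hormone's feedback on TRH and thyrotropin. It measured 38.3, 38.1 and 41.5 CPM in NS-DADm 1, 2 and 3, against 33.9, 41.7 and 43.6 CPM in WT 1, 2 and 3. WT libraries held both the lowest and the highest value, and the log2 fold change was -0.01 with a 95% interval of -0.20 to 0.17 (edgeR, BH adjusted p = 0.98). There were 10.6, 10.9 and 9.75 Thra reads per Thrb read in NS-DADm 1, 2 and 3, and 12.3, 9.63 and 8.77 in WT 1, 2 and 3. The groups overlapped, with a difference of 0.04 on the log2 scale (exact two-sided permutation test, p = 0.90).

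The partners of these receptors at DNA are the retinoid X receptors. With Thra and Thrb they made 5 genes, of which none was called by edgeR, DESeq2 or limma and 1 was higher at an unadjusted p under 0.05. Rxra averaged 72.6 ± 2.2 CPM in NS-DADm mice and 66.9 ± 1.3 CPM in WT mice (log2 0.12; edgeR, BH adjusted p = 0.41). Rxrb averaged 56.0 ± 2.4 CPM in NS-DADm mice and 53.0 ± 0.88 CPM in WT mice (log2 0.08; edgeR, BH adjusted p = 0.67). The groups did not overlap for either gene, with NS-DADm libraries the higher.

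Dio2 encodes the enzyme that makes T3 from T4 in brain (chromosome 12, 90724552 to 90738438, minus strand). It measured 11.3, 7.10 and 8.10 CPM in NS-DADm 1, 2 and 3, against 11.6, 13.3 and 13.6 CPM in WT 1, 2 and 3. The groups did not overlap, but NS-DADm 1 and WT 1 differed little, and the gap was mainly in NS-DADm 2 and 3. The log2 fold change was -0.54 ± 0.15 SE, a level 1.45-fold lower in NS-DADm mice, with a 95% interval of -0.88 to -0.20, and it did not pass the threshold (edgeR, BH adjusted p = 0.19). It was past it with the DESeq2 Wald test (adjusted p = 0.031) and without NS-DADm 1 (log2 -0.75; edgeR, BH adjusted p = 0.015). The value was -0.51 ± 0.39 SE with the thalamus marker covariate, close to that without it but with a wider error.

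Tanycyte markers, too, were lowest in NS-DADm 2 and 3. Their summed level over 8 genes was 163, 130.3 and 129.8 CPM in NS-DADm 1, 2 and 3, against 149, 160.3 and 151 CPM in WT 1, 2 and 3. None of the 8 was called by edgeR, DESeq2 or limma, 2 were lower at an unadjusted p under 0.05, and none was at 0 in any library. Relative to the mean log2 CPM of these markers, Dio2 was at -0.40, -0.73 and -0.42 in NS-DADm 1, 2 and 3, against -0.19, -0.07 and -0.07 in WT 1, 2 and 3. It was lower in every NS-DADm library, by 0.40 (exact two-sided permutation test, p = 0.10, the smallest the design allows). Against the mean of 10 astrocyte markers the difference was -0.48 (exact two-sided permutation test, p = 0.10), again with no overlap. There NS-DADm 1, at -4.48, lay just below WT 1, at -4.44. Both comparisons were added after Dio2 was seen to be lower, so they describe the same values and are no independent test.

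The other deiodinase genes were scarcely detected. Dio3, which inactivates T3 and T4, had 4, 9 and 4 reads in NS-DADm 1, 2 and 3, against 12, 10 and 7 in WT 1, 2 and 3, too few for the test. Dio1 had 0 reads in all 6 libraries.

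Slco1c1 (chromosome 6, 141524368 to 141570177, plus strand) encodes the T4 transporter of brain vessels and astrocytes. It measured 30.1, 26.2 and 30.0 CPM in NS-DADm 1, 2 and 3, against 35.4, 36.4 and 33.3 CPM in WT 1, 2 and 3. Every NS-DADm library lay below every WT library. The log2 fold change was -0.28 ± 0.07 SE, a level 1.22-fold lower in NS-DADm mice, with a 95% interval of -0.44 to -0.13, and it did not pass the threshold (edgeR, BH adjusted p = 0.10). It passed with no count filter (edgeR, BH adjusted p = 0.043) and not with DESeq2 (adjusted p = 0.057) or limma (adjusted p = 0.11). With the thalamus marker covariate it was -0.24 ± 0.17 SE.

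Endothelial markers summed over 9 genes to 275, 266 and 280.1 CPM in NS-DADm 1, 2 and 3, against 326, 275 and 264 CPM in WT 1, 2 and 3, with WT 1 the highest. None of the 9 was called by edgeR, DESeq2 or limma, and 2 were lower at an unadjusted p under 0.05. Relative to their mean log2 CPM, Slco1c1 was at 0.40, 0.30 and 0.39 in NS-DADm 1, 2 and 3, against 0.36, 0.74 and 0.62 in WT 1, 2 and 3. WT 1 fell within the NS-DADm range, and the difference was -0.21 (exact two-sided permutation test, p = 0.30). Relative to astrocyte markers the difference was also -0.21 (exact two-sided permutation test, p = 0.10). The groups did not overlap, but NS-DADm 3, at -3.010, lay just below WT 3, at -2.996. These markers summed to 4434 to 4603 CPM in NS-DADm and 4445 to 4714 CPM in WT libraries. Of the 10 astrocyte markers, 8 had fitted values below 0, and 4 were lower at an unadjusted p under 0.05, against 6.46% of all tested genes. None was called with edgeR or limma, and DESeq2 called 1, Gja1, as lower. Over the 5 comparisons of Trh, Dio2 and Slco1c1 with a marker list, BH adjusted permutation p-values were 0.17 to 0.30. All 5 were added after the data were seen. The part of these cell types in the lower Dio2 and Slco1c1 counts was not tested.

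**Figure D3:**
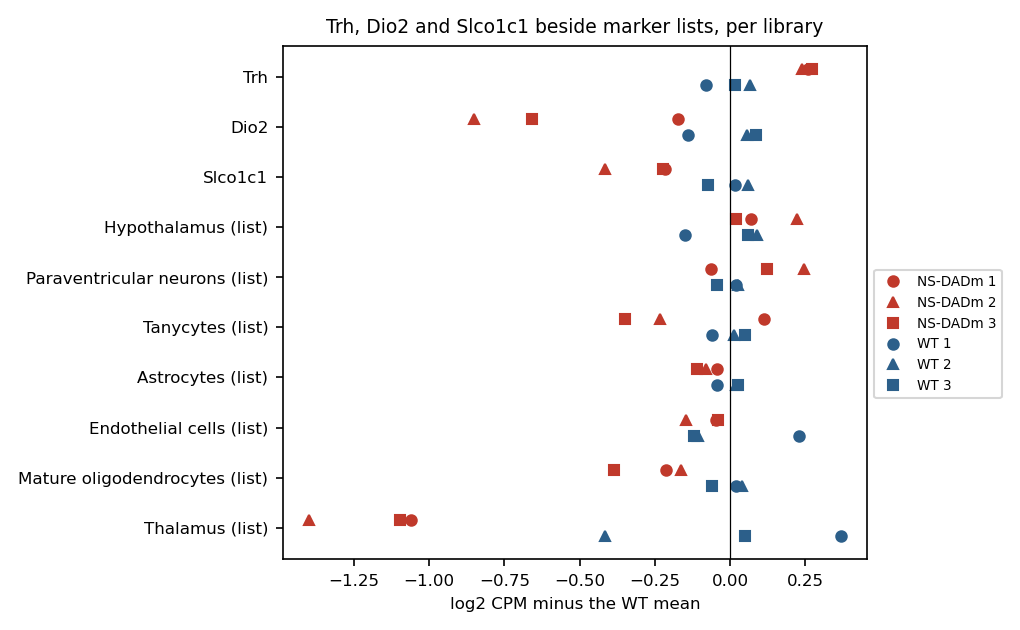
Log2 CPM minus the WT mean (horizontal axis) of Trh, Dio2, Slco1c1 and the mean of 7 marker lists in each library, with NS-DADm in red above WT in blue and the symbol giving the replicate number. Thalamus markers stand apart in the NS-DADm libraries by more than any other list shown, and Trh is above and Slco1c1 below 0 in all 3 NS-DADm libraries.

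Crym encodes mu-crystallin, which holds T3 in the cytosol (chromosome 7, 120186380 to 120202111, minus strand). It varied most among the 9 genes, with 6.67, 3.29 and 2.47 CPM in NS-DADm 1, 2 and 3, against 9.18, 2.85 and 4.96 CPM in WT 1, 2 and 3. The libraries numbered 1 were the highest of each group, and the groups overlapped widely. Its log2 fold change was -0.46 with a 95% interval of -2.09 to 1.16 (edgeR, BH adjusted p = 0.87). In that fit a difference of the size seen for Dio2 was not detectable for this gene. With the replicate number as a block its log2 fold change was -0.43 ± 0.18 SE (edgeR, BH adjusted p = 0.33). Without WT 1 its value was 0.08, and with the thalamus marker covariate 2.15, neither past the threshold.

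Slco1c1 and Crym belong to a list of 10 genes that move thyroid hormone into cells or bind it. Of these 10, 9 were tested, and none was called by edgeR, DESeq2 or limma. At an unadjusted p under 0.05 there were 1 higher and 2 lower, Slco1c1 among the lower. Slc7a8, an amino acid transporter that also carries T3, measured 44.5, 43.8 and 49.8 CPM in NS-DADm 1, 2 and 3, against 65.7, 48.9 and 56.8 CPM in WT 1, 2 and 3. NS-DADm 3 was above WT 2, and the log2 fold change was -0.31 ± 0.10 SE (edgeR, BH adjusted p = 0.27). Without WT 1, the highest library, it was -0.19 (edgeR, BH adjusted p = 0.21). It was -0.41 and past the threshold without WT 2 (edgeR, BH adjusted p = 0.021), and 0.29 with the thalamus marker covariate. Ttr, the carrier of T4 in cerebrospinal fluid and the main product of choroid plexus, had 13, 30 and 31 reads in NS-DADm 1, 2 and 3, against 13, 17 and 10 in WT 1, 2 and 3. The groups overlapped at 13 to 17 reads (edgeR, BH adjusted p = 0.31).

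Klf9 and Hr, a zinc-finger transcription factor and a histone demethylase that T3 induces in brain, did not differ past the threshold. Klf9 (chromosome 19, 23141226 to 23168134, plus strand) measured 74.2, 79.3 and 83.8 CPM in NS-DADm 1, 2 and 3, against 79.6, 75.9 and 78.5 CPM in WT 1, 2 and 3. The NS-DADm libraries spanned the WT range, with a log2 fold change of 0.02 and a 95% interval of -0.10 to 0.14 (edgeR, BH adjusted p = 0.94). Hr (chromosome 14, 70552212 to 70573548, plus strand) measured 50.1, 41.4 and 43.3 CPM in NS-DADm 1, 2 and 3, against 53.8, 42.2 and 45.0 CPM in WT 1, 2 and 3. The libraries numbered 1 were the highest of each group here too, as for Crym. The log2 fold change was -0.07 with a 95% interval of -0.28 to 0.15 (edgeR, BH adjusted p = 0.88), and 0.48 ± 0.16 SE with the thalamus marker covariate (edgeR, BH adjusted p = 0.37).

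With 12 further genes known to be induced by T3 in brain or other tissues, Klf9 and Hr made a list of 14, of which 13 were tested. None was called with edgeR or limma, and 1 fell with DESeq2. At an unadjusted p under 0.05 there were 0 higher and 3 lower, against 4.4% and 6.46% of all tested genes. Of 13 fitted values 10 were below 0, with a median log2 fold change of -0.12, against 0.004 over all tested genes. Kcnj10, the potassium channel of astrocytes and oligodendrocytes, was the gene called by DESeq2 (adjusted p = 0.023). It measured 475, 418 and 496 CPM in NS-DADm 1, 2 and 3, against 546, 513 and 591 CPM in WT 1, 2 and 3. Every NS-DADm library was below every WT library, and the log2 fold change was -0.25 ± 0.07 SE (edgeR, BH adjusted p = 0.17) and 0.02 with the thalamus marker covariate. Rasd2, a small GTPase gene, had a log2 fold change of -0.19 (edgeR, BH adjusted p = 0.41), averaging 85.1 ± 7.5 CPM in NS-DADm mice, against 97.1 ± 9.6 CPM in WT mice. Of 10 mature oligodendrocyte markers, which share Mbp with this list, 9 had fitted values below 0. At an unadjusted p under 0.05 there were 8 lower and 1 higher, Mobp, against 6.46% and 4.4% of all tested genes. Ugt8a was called as lower by edgeR and limma, and DESeq2 called Cldn11, Ugt8a and Klk6 as lower. Their summed level was 4217 to 4857 CPM in NS-DADm and 4857 to 5241 CPM in WT mice, with NS-DADm 2 level with WT 3, and their part in the values of this list was not tested.

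Genes that T3 represses made a list of 7, which includes Trh and Dio2. Trh was the 1 called with edgeR and limma, DESeq2 also called Dio2 as lower, and the median log2 fold change was 0.13. Cga, the shared subunit of thyrotropin and the gonadotropins, measured 7.98, 23.8 and 2.28 CPM in NS-DADm 1, 2 and 3, against 1.65, 1.35 and 2.16 CPM in WT 1, 2 and 3. NS-DADm 2 was far above the others and NS-DADm 3 just above the WT range. Cga is also one of the pituitary markers, whose sum was highest in NS-DADm 2, and their part in its level was not tested. Its log2 fold change of 2.73 ± 1.1 SE did not pass the threshold (edgeR, BH adjusted p = 0.49), and without NS-DADm 2 it was 1.57 (edgeR, BH adjusted p = 0.58).

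Levels of the 9 genes can be set against each other as CPM per kilobase of GENCODE exons. By mean level the order was the same in both groups except at the top. In NS-DADm mice the ranges of Trh (89.4 ± 1.0 CPM per kilobase) and Thra (88.7 ± 1.3) overlapped, whereas in WT mice every library had Trh (74.9 ± 3.8) below Thra (86.7 ± 3.7). Klf9 followed with 16.4 ± 1.0 CPM per kilobase in NS-DADm and 16.2 ± 0.40 in WT mice. Hr came next, at 6.49 ± 0.66 CPM per kilobase in NS-DADm and 6.8 ± 0.87 in WT mice, and then Slco1c1, at 5.55 ± 0.42 in NS-DADm and 6.75 ± 0.31 in WT mice. Their ranges were apart in NS-DADm libraries and overlapped in WT libraries. Thrb was at 5.31 ± 0.26 CPM per kilobase in NS-DADm and 5.36 ± 0.70 in WT mice. Between it and Slco1c1 it was the reverse, with overlap in NS-DADm and none in WT libraries. Trhde was at 3.20 ± 0.19 CPM per kilobase in NS-DADm and 3.10 ± 0.33 in WT mice, apart from its neighbours on either side. Dio2 had 1.52 ± 0.38 CPM per kilobase in NS-DADm and 2.20 ± 0.18 in WT mice. Crym was the lowest, at 1.22 ± 0.66 CPM per kilobase in NS-DADm and 1.67 ± 0.95 in WT mice, and its range overlapped that of Dio2 in both groups. The lengths are those of GENCODE M21 and may differ from the gene models of the counting, which the sources used here do not name.

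The genes most like Trh across the 6 libraries were ranked by the Pearson correlation of log2 CPM among the 10529 tested genes that averaged 10 CPM or more. They were Rere (r = 0.993), Ddx52 (0.984), Dact2 (0.983) and Fubp3 (0.982). All 4 were higher in every NS-DADm library than in every WT library, so these correlations describe mostly the same step between 2 groups of 3. Rere, which encodes a nuclear corepressor protein, averaged 291 ± 5.6 CPM in NS-DADm mice and 254 ± 7.5 CPM in WT mice (log2 0.20; edgeR, BH adjusted p = 0.072). None of the 4 was called in the edgeR test with genotype as the only term, and Rere was called with DESeq2 (adjusted p = 0.0089) and, in that edgeR test, without WT 1 (adjusted p = 0.043).

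**Figure D4:**
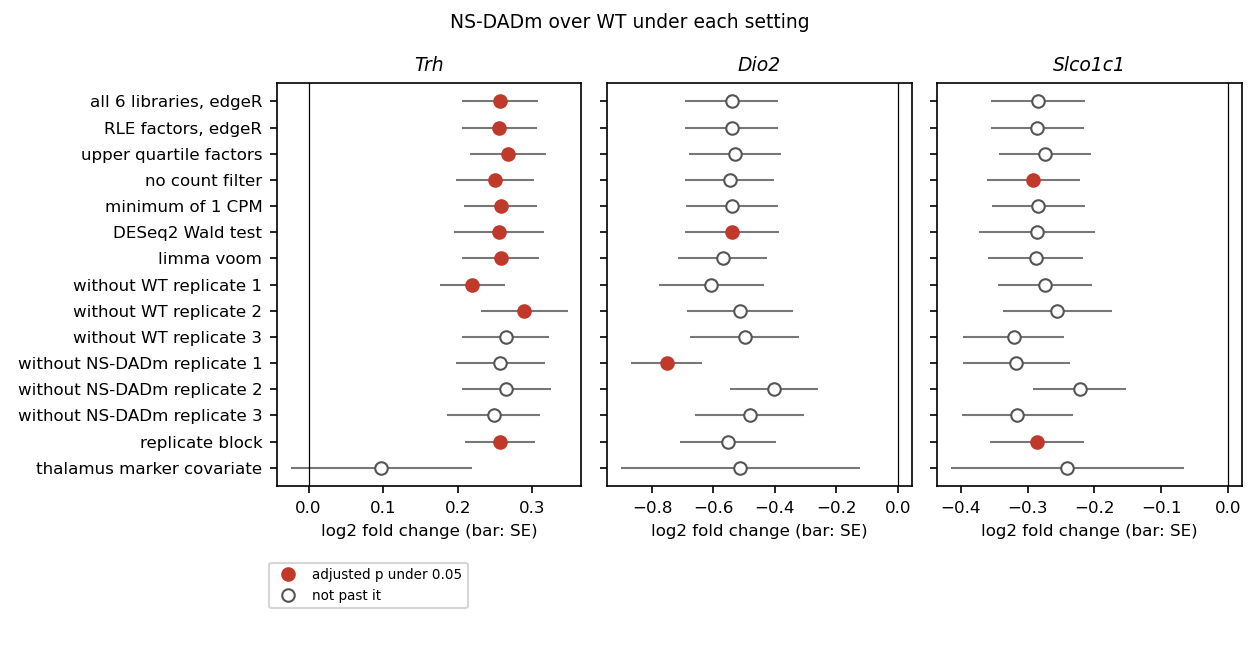
Log2 fold change of NS-DADm over WT (horizontal axes, bars are SE) for Trh, Dio2 and Slco1c1 under each setting (rows), with filled symbols at an adjusted p under 0.05. The direction of each gene is the same in all 15 rows, and Trh is nearest to 0 with the thalamus marker covariate, at 0.10.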

How the data were processed

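Whole-hypothalamus RNA was compared between 3 NS-DADm and 3 WT libraries. Per the submitters' processing notes, reads were processed with TopHat2 2.0.9 and HTSeq on mm10. The deposited values are raw read counts per gene symbol. No source used here names the HTSeq version, gene annotation or strand setting. The last 5 rows of each table, classes of unassigned reads, were left out: no feature 13.3 to 14.8%, ambiguous 1.00 to 1.06% and not unique 14.3 to 16.5% of entries.

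Counts were filtered with filterByExpr, scaled by TMM and tested with edgeR 4.0.16 (glmQLFTest, robust) in R 4.3.3, with BH adjustment over 15894 genes. SEs and 95% intervals derive from the F statistic. Alternatives used DESeq2 1.42.0, limma 3.58.1, other factors and filters, each library left out, a replicate block, and the mean log2 CPM of 14 thalamus markers as a covariate. The code was tested on simulated counts. Libraries within a group differed by 3.30 to 9.98 times the counting noise (chi-square per degree of freedom), so none was the same library counted again. This does not show that each came from a separate mouse. Levels relative to marker lists were added after seeing the data, only for Trh, Dio2 and Slco1c1, the members at an unadjusted p under 0.05.

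The genes and lists were chosen with earlier results of these data known. Besides the 9 genes, the text names per pathway list every called gene and the 2 smallest p, Ncor1, Hdac3 and the 4 genes most like Trh. One further gene under this rule is not reported here. Positions are from GENCODE M21 and promoters from RefSeq, both of the mm10 (GRCm38) build. Figures were drawn with matplotlib 3.10.9.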

Additional observations from a re-analysis of the deposited data

How the results depend on the processing

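The number of genes called depended on the setting. It was 203 (31 higher and 172 lower in NS-DADm mice) with no count filter, 282 (49 and 233) with DESeq2, and 8 (6 and 2) with the thalamus marker covariate. With each library left out in turn it was 5 (without NS-DADm 2) to 312 (without WT 1), with 8 without NS-DADm 3, 10 without WT 3 and 262 without WT 2, of which 1 to 102 were higher and 4 to 243 lower. Of the 9 thyroid axis genes, 2 were called with no count filter (Trh and Slco1c1), 2 with DESeq2 (Trh and Dio2), 0 with the covariate, and 0 to 1 with a library left out. Whether the replicate numbers of the titles pair the samples is not known. Deviations of same-numbered libraries from their group means correlated at 0.20, 0.13 and -0.03 for numbers 1, 2 and 3. NS-DADm 1 and 2 correlated best with the WT library of the same number, and NS-DADm 3 with WT 2. So few libraries cannot settle whether the numbers pair them. With the replicate number as a block, 409 genes were called (77 higher and 332 lower) and 2 of the 9 (Trh and Slco1c1). Of the other genes named, Pcsk2, Kcnj10, Rasd2, Npy and Rere were also called with this block. The difference in the log2 ratio of Trh to Trhde was 0.16 to 0.26 with a library left out and 0.21 in pairs (exact sign-flip test, replicate block), and that of Thra to Thrb was -0.063 to 0.18 and 0.04. For Trh to Trhde, the exact two-sided permutation test gave p = 0.10 without WT 1 or NS-DADm 2, and p = 0.20 without any other library.

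With a library left out, log2 fold changes changed sign for Trhde (-0.037 to 0.094), Crym (-0.97 to 0.078), Hr (-0.15 to 0.045), Thrb (-0.11 to 0.057) and Klf9 (-0.023 to 0.065), none past the threshold. With the covariate, values changed sign for Trhde (-0.33), Crym (2.15), Hr (0.48), Pcsk1 (-0.24), Prep (0.023), Trhr2 (0.61), Slc7a8 (0.29), Kcnj10 (0.022), Rasd2 (0.26), Cga (-0.25), Trhr (-0.19) and Npy (-0.19), none past the threshold. The cause was not tested. Slco1c1, Dio2 and Trh kept their direction under every setting run. Low counts limit what can be said of Dio3 and Ttr, with at most 31 reads per library, and of Dio1, with 0.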
